A study of Mus musculus with 12 samples.

Results

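This account follows 34 genes of the p53 response to DNA damage in mouse acute myeloid leukaemia cells before and after chemotherapy. The genes were chosen by symbol: Trp53, which encodes p53 itself, and 33 genes that p53 is known to control or that control p53. All 34 of 34 symbols were found, among 24883 gene entries per library, each at a single locus. RNA-seq was run on GFP+ leukaemia cells, flow-sorted out of mouse bone marrow, with 12 libraries from 12 mice. The leukaemia carried the MLL-AF9 fusion oncogene as a transgene in every group, treated and untreated alike. The relapse group (n = 4 mice) was taken 10 days, and the iCT group (induction chemotherapy, n = 3) 3 days, after a course of doxorubicin with cytarabine had ended. The vehicle group (n = 5) was given vehicle in place of the drugs. The promoter behind the transgene, the age and strain of the mice and whether the leukaemias shared 1 donor are not stated in the labels, so p-values measure the spread between these mice. Values are FPKM as deposited, a level scaled to transcript length and to library size.

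p53 is a transcription factor that is made all the time and destroyed just as fast. Mdm2 tags it for degradation and Mdm4 masks its activation domain. DNA damage, such as that from doxorubicin and cytarabine, activates the kinases ATM and ATR, which free p53 from Mdm2. p53 then switches on genes that halt the cell cycle, repair DNA, protect against oxidants or kill the cell, and it also switches on Mdm2, which closes a negative feedback loop. Because p53 is controlled mainly at the protein level, its own transcript need not move when the pathway is active.

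p53 binds DNA at pairs of a 10-base motif, the p53 half-site, which reads as the same motif on both strands. The 250 bases upstream of each annotated start were searched in RefSeq promoters (GRCm38.p6) for the half-site and for a double site, meaning a pair of half-sites at most 1 base apart with at most 3 mismatches outside the central bases. Promoters were found for 27 of the 34 genes, 37 promoters in all. A half-site occurred in 11 of these 37 promoters and in 7.13% of all 32851 promoters. A double site occurred in 4 of the 37 and in 0.88% of all. Those 4 stretches are shown because they are the pairs that p53 could occupy as a tetramer next to a start site, and because the genes behind them responded differently below. All read 5′ to 3′ on the plus strand, and capitals mark the 20 bases of the double site.
Cdkn1a: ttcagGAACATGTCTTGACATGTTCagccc
Aen: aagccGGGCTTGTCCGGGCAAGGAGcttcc
Trp53: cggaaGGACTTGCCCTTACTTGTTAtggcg
Rps27l: atggcGGGCTTGTTGAGACTTGTCCgggcg
Cdkn1a, Aen and Rps27l each also had another promoter in which no double site was found, so distances refer to the promoter that holds the site. The Cdkn1a stretch (chr17:29090923-29090952) had 1 mismatch and its site began 51 bases upstream of that start. The Aen stretch (chr7:78895932-78895961) had 3 mismatches at 121 bases, the Trp53 stretch (chr11:69580279-69580308) 3 mismatches at 75 bases, and the Rps27l stretch (chr9:66946291-66946320) 1 mismatch at 117 bases. A match of letters is not a bound site, and many p53 sites lie in introns or far upstream, outside this window.

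Libraries differed in depth. Intervals in the files implied 2780819 to 7484368 fragments in the relapse libraries, 361914 in iCT mouse 1 against 6227708 and 8359793 in the other iCT mice, and 1225254 to 6171368 in the vehicle libraries. A value of iCT mouse 1 therefore rests on few fragments, and results are also given without it. Genes listed as leukaemia cell markers were present in every group: 12 of 12 were tested and none was at 0 throughout a group. Their summed FPKM was 7894 to 11904 in relapse, 8995 to 12616 in iCT and 9963 to 12153 in vehicle. The list also holds genes that normal myeloid cells express, such as Mpo. Mpo alone was at 1807 to 3764 FPKM in relapse, 2204 to 2695 FPKM in iCT and 1915 to 3087 FPKM in vehicle. The sums therefore do not measure the share of leukaemia cells. Of the 12 genes, Kit, Cd48 and Fcgr3 were lower in iCT than in vehicle. Over all 11019 genes, limma at an adjusted p under 0.05 called 3.31% higher and 6.31% lower in iCT. These are the shares to set beside each count of markers here. Markers of other marrow cells differed with iCT. Of 12 tested tissue macrophage markers 8 were higher and 1 (Adgre1) lower in iCT than in vehicle, of 8 osteoclast markers 6 were higher, and of 10 mature neutrophil markers 3 were higher. At least Mrc1, Cd5l and Dcstamp were tested only because their iCT libraries reached 1 FPKM. Their entry and a rise are therefore tied, and no count without such markers was made. Of 5 erythroid markers 0 were higher and 2 lower (the beta-globin genes Hbb-b1 and Hbb-b2), and Cd79b of 3 B and plasma cell markers and Pecam1 of 6 stromal and endothelial markers were lower. The erythroid sums were 28.9 to 83.7 FPKM in relapse, 0 to 5.18 in iCT and 6.61 to 184 in vehicle, with iCT below every other library. Summed osteoclast marker FPKM was 60.2 to 179 in relapse, 268 to 1013 in iCT (1013 in mouse 1) and 29.7 to 87.6 in vehicle. The macrophage sums were 146.0 to 189 in relapse, 282 to 417 in iCT and 193 to 237 in vehicle. The neutrophil sums were 6523 to 15482 in relapse, 14947 to 19339 in iCT and 3895 to 14550 in vehicle. Among the defining osteoclast markers, Dcstamp was at 0 in every vehicle library, with a mean of 3.09 FPKM in iCT. Whether these cells carry part of the p53 changes below was not tested, and in sorted bulk RNA more cells of a type and more RNA per cell cannot be told apart.

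**Figure D1:**
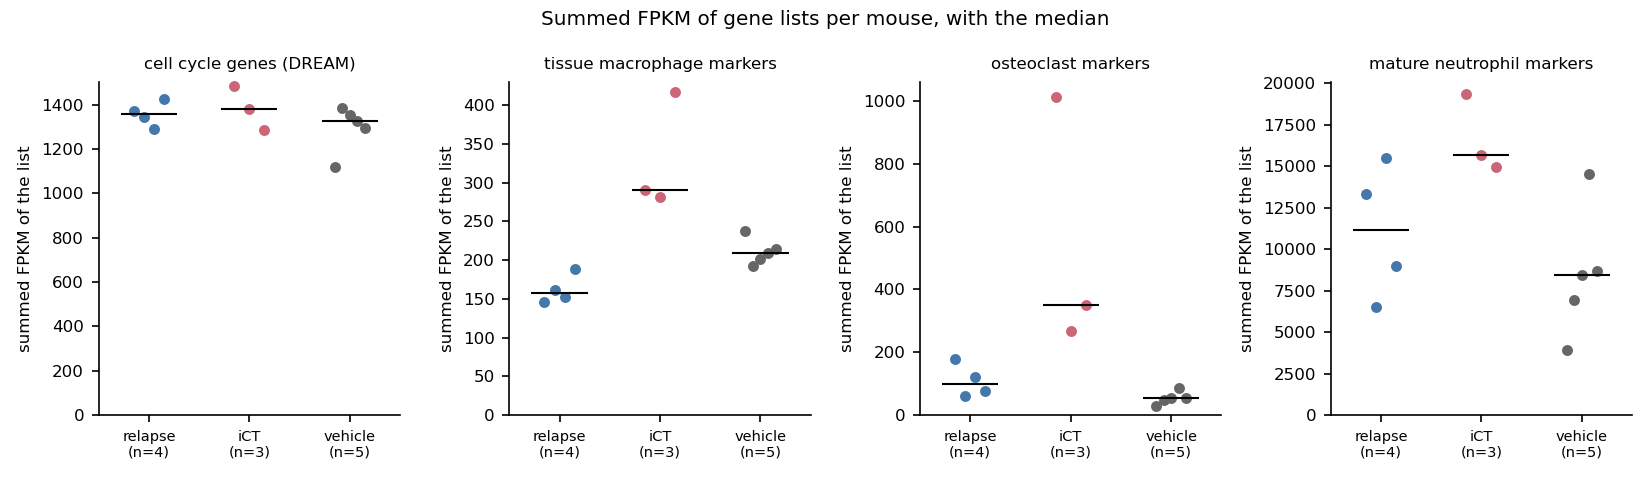
Summed FPKM of 4 gene lists in each library (y axes, linear, from 0), with 1 point per mouse, a bar at the group median, and groups relapse (n = 4), iCT (n = 3) and vehicle (n = 5) on the x axes. The sums of the cell cycle genes overlap between the groups, whereas every iCT library lies above every relapse and vehicle library for macrophage and osteoclast markers, with 1013 FPKM of osteoclast markers in iCT mouse 1.

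Levels in vehicle cells spanned a wide range. Of the 34 genes 3 had a mean of at least 50 FPKM (Rps27l at 734, Trp53 at 109.8, Xpc at 67.0), 12 lay between 10 and 50, 12 between 1 and 10, and 7 below 1 (Ak1, Zmat3, Ephx1, Phlda3, Plk3, Perp and Plk2). A gene was tested if 3 or more libraries reached 1 FPKM, which let in 32 of the 34 and left out Plk2 and Perp. Plk3, Zmat3 and Ephx1 passed only through their iCT libraries.

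At 3 days after chemotherapy the sorted GFP+ fraction had more RNA of 8 p53 targets: the cell-cycle inhibitor Cdkn1a, Ccng1, Gtse1, Zmat3, Phlda3, Trp53inp1, Aen and Ephx1. By contrast 1 target, Btg2, was lower. The size of the rise differed greatly, with log2 changes of 4.59 for Phlda3, 2.48 for Cdkn1a and 2.22 for Zmat3, and between 0.75 (Aen) and 1.46 (Ephx1) for the other 5. In limma at an adjusted p under 0.05, 8 of the 32 tested genes were thus higher in iCT than in vehicle, against 3.31% of all 11019 genes, and 1 was lower, against 6.31%. Among the 29 genes that passed the filter without help from the iCT libraries, 6 were higher and 1 lower, against 3.12% and 6.42% of all such genes. The median log2 change was 0.19 over the 32 genes and -0.08 over all genes tested. Without iCT mouse 1 the same 8 were higher, against 2.11% of all genes, and 0 were lower, against 4.15%. Both scalings tried, median-of-ratios and quantile, kept these 9 calls.

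**Figure D2:**
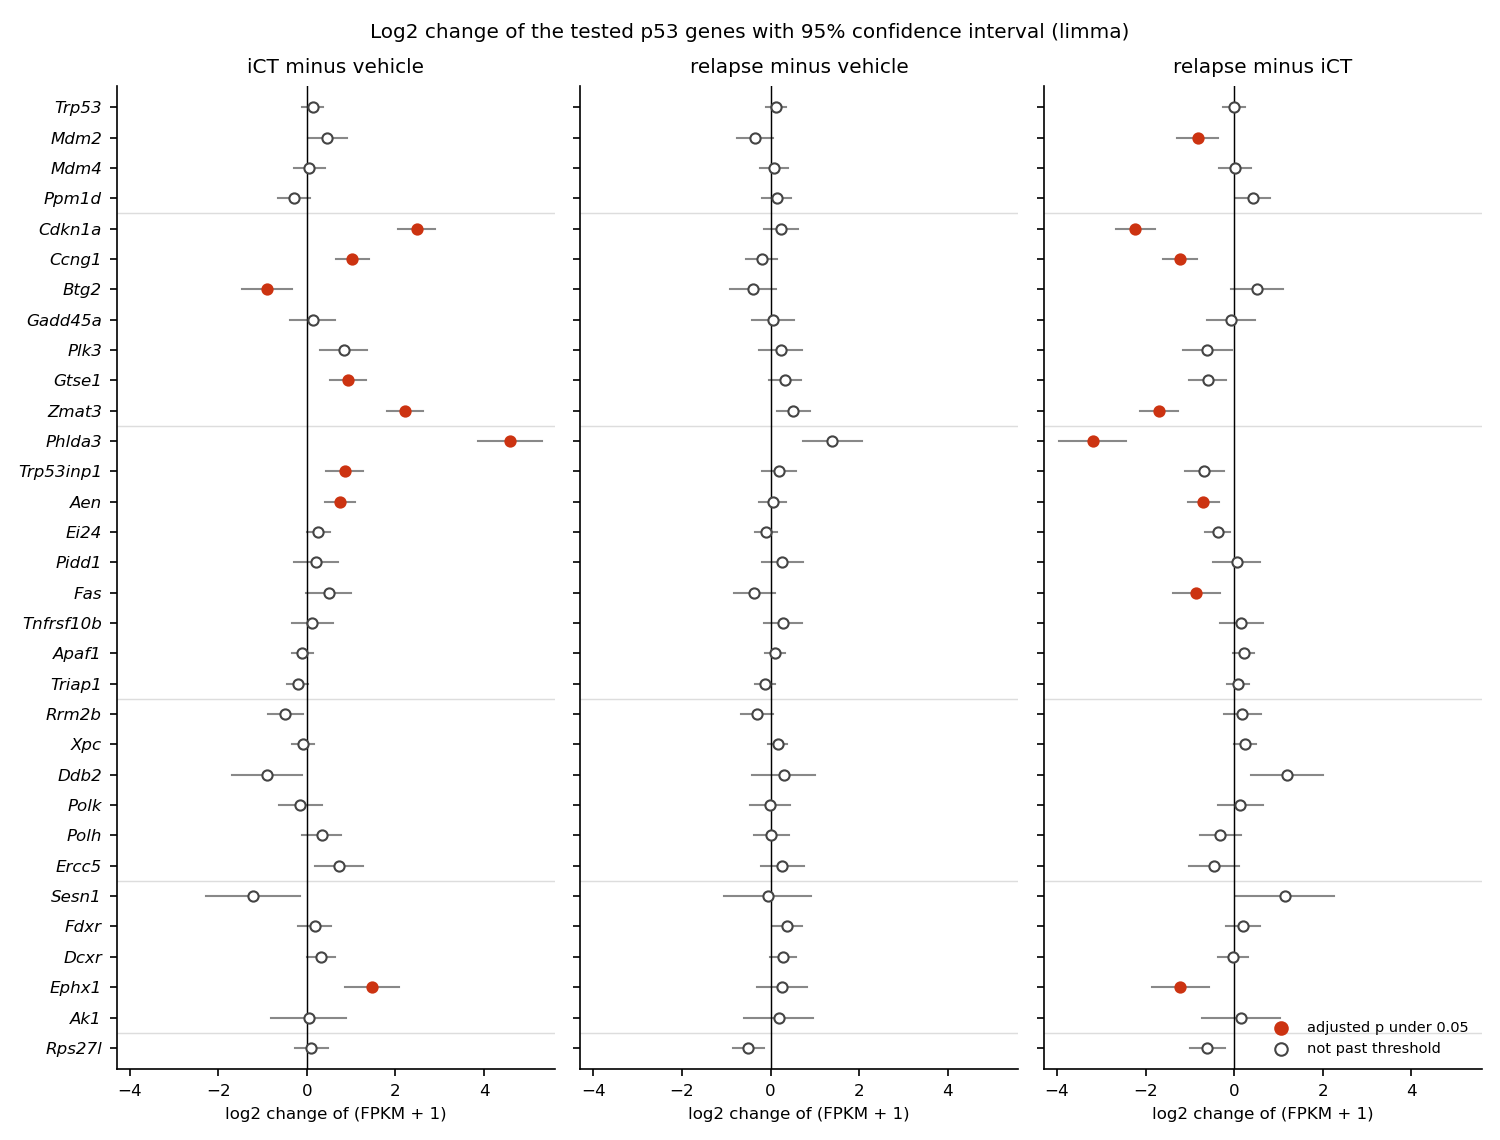
Log2 change of FPKM + 1 (x axes) of the 32 tested genes (rows, grouped by role) in iCT minus vehicle, relapse minus vehicle and relapse minus iCT, with 95% confidence intervals from limma as lines and filled points for an adjusted p under 0.05. Filled points lie to the right for 8 genes in iCT minus vehicle and to the left for 8 genes in relapse minus iCT, and relapse minus vehicle has none.

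The p53 gene and its regulators did not pass the test in iCT. Trp53 stood at 118, 112, 114 and 135 FPKM in relapse mice 1 to 4, at 125, 111 and 123 FPKM in iCT mice 1 to 3 and at 89.4, 108, 123, 120.1 and 109 FPKM in vehicle mice 1 to 5. The groups overlapped throughout, and the log2 change in iCT against vehicle was 0.13 (SE 0.11, adjusted p = 0.445). Mdm2 (chr10:117688875-117710758, GRCm38 as are all gene positions here), the ubiquitin ligase that destroys p53 and is itself a classical p53 target, stood at 26.98, 17.7, 21.3 and 22.01 FPKM in relapse mice 1 to 4, at 56.3, 31.1 and 34.5 FPKM in iCT mice 1 to 3 and at 37.2, 29.9, 27.4, 23.5 and 24.9 FPKM in vehicle mice 1 to 5. Only iCT mouse 1, the shallow library, stood far above vehicle, and the change of 0.46 (SE 0.20, adjusted p = 0.149) did not pass. It was 0.21 (adjusted p = 0.5300) without iCT mouse 1.

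Mdm4, the Mdm2 relative that blocks p53 transactivation, was at 6.03, 6.94, 5.14 and 6.74 FPKM in relapse mice 1 to 4, 5.92, 5.98 and 6.24 FPKM in iCT mice 1 to 3 and 4.88, 5.21, 7.19, 5.19 and 6.69 FPKM in vehicle mice 1 to 5. The 3 iCT values fell inside the vehicle range, with a log2 change of 0.06 (SE 0.16, adjusted p = 0.8299). Ppm1d, the phosphatase Wip1 that switches off damage signalling and in other settings is induced by p53, was at 13.1, 8.304, 11.5 and 14.3 FPKM in relapse, 8.04, 9.15 and 7.98 FPKM in iCT and 10.8, 10.3, 9.77, 9.295 and 12.4 FPKM in vehicle mice. Every iCT value lay below every vehicle value, yet the change of -0.29 (SE 0.17, adjusted p = 0.253) did not pass. Groups failed to overlap in this direction for 2 of the 32 genes (Ppm1d and Rrm2b), against 10.6% of all genes.

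**Figure D3:**
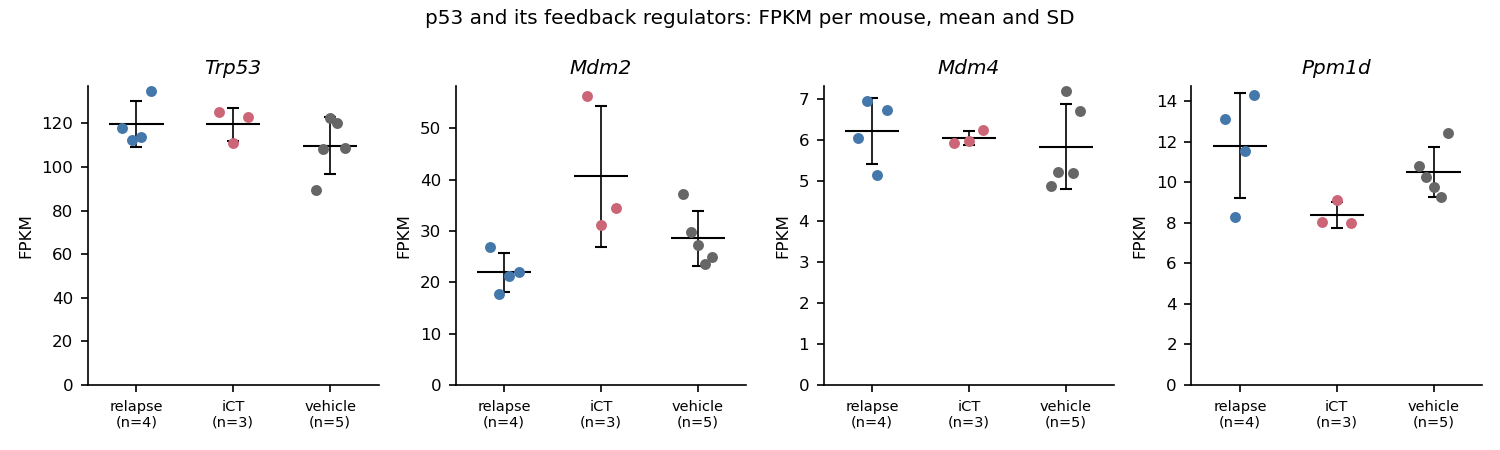
FPKM (y axes, linear, from 0) of Trp53, Mdm2, Mdm4 and Ppm1d in each mouse of the relapse (n = 4), iCT (n = 3) and vehicle (n = 5) groups, with the group mean and SD. Trp53 and Mdm4 overlap across groups, Mdm2 reaches 56.3 FPKM in iCT mouse 1, and all iCT values of Ppm1d lie below the vehicle values.

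Of 7 tested cell-cycle arrest genes 4 were higher in iCT, against 3.31% of all genes, and 1 lower, against 6.31%. Of these 7, Zmat3, which rose, and Plk3 were tested only because their iCT libraries are high. Cdkn1a (chr17:29090986-29100722, + strand) encodes p21, which inhibits cyclin-dependent kinases and is the main route by which p53 stops the cycle. It stood at 22.9, 14.1, 19.4 and 17.3 FPKM in relapse mice 1 to 4, at 101, 70.7 and 97.7 FPKM in iCT mice 1 to 3 and at 13.96, 15.95, 20.96, 13.98 and 12.1 FPKM in vehicle mice 1 to 5. The 3 iCT libraries lay far above all others, whereas relapse and vehicle overlapped. The mean was 89.9 ± 16.7 FPKM in iCT (SD, n = 3) and 15.4 ± 3.398 FPKM in vehicle (SD, n = 5), a log2 change of 2.48 (SE 0.19, adjusted p = 4.89e-05). Cdkn1a has the double site with 1 mismatch printed above.

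Zmat3 (chr3:32334794-32365665), a zinc-finger protein that binds RNA and alters splicing, was almost silent in vehicle cells. Its level was 1.305, 0.808, 1.38 and 0.909 FPKM in relapse mice 1 to 4, 6.34, 4.19 and 7.19 FPKM in iCT mice 1 to 3 and 0.517, 0.379, 0.391, 0.487 and 0.536 FPKM in vehicle mice 1 to 5. No 2 groups overlapped. The change in iCT was 2.22 (SE 0.19, adjusted p = 8.67e-05), and the ratio of the means was 12.8. Ccng1 (chr11:40748552-40755286), cyclin G1, which brings a phosphatase to Mdm2, stood at 41.7, 30.4, 32.4 and 44.3 FPKM in relapse mice 1 to 4, at 79.04, 101 and 81.8 FPKM in iCT mice 1 to 3 and at 38.4, 38.8, 59.4, 37.1 and 41.4 FPKM in vehicle mice 1 to 5. All iCT values exceeded all others, including vehicle mouse 3, the highest of its group, and the change was 1.02 (SE 0.17, adjusted p = 0.00471).

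Gtse1 (chr15:85859707-85876573), a microtubule-associated protein of the G2 phase that binds p53 and counteracts it, was at 13.9, 14.7, 14.4 and 14.4 FPKM in relapse, 25.96, 17.5 and 24.1 FPKM in iCT and 7.27, 13.3, 11.3, 12.8 and 12.4 FPKM in vehicle mice. The groups formed 3 separate steps, with iCT at the top, and iCT exceeded vehicle by 0.93 (SE 0.18, adjusted p = 0.0107). With only iCT and vehicle fitted, where 1.1% of all genes were called higher, the adjusted p was 0.0518. Gtse1 is also a gene of cycling cells, so its RNA is not specific to p53. Btg2 (chr1:134074865-134079155), an antiproliferative cofactor of mRNA deadenylation, ran the other way. It stood at 5.21, 5.14, 4.75 and 7.096 FPKM in relapse mice 1 to 4, at 1.67, 4.18 and 5.78 FPKM in iCT mice 1 to 3 and at 5.697, 8.68, 7.35, 8.18 and 7.995 FPKM in vehicle mice 1 to 5. The lowest value, in iCT mouse 1, rested on about 1.99 fragments, and iCT mouse 3 lay inside the vehicle range. The change of -0.91 (SE 0.26, adjusted p = 0.0466) passed narrowly. It was -0.52 (adjusted p = 0.121) without iCT mouse 1, and it also missed the threshold without vehicle mouse 2, 3, 4 or 5 or any single relapse mouse (adjusted p 0.0553 to 0.0906).

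The remaining arrest genes were low or did not pass. Plk3, a stress-activated polo-like kinase, was at 1.01, 0.339, 0.762 and 0.2196 FPKM in relapse, 2.22, 0.978 and 1.06 FPKM in iCT and 0.389, 0, 0.337, 0.375 and 0.605 FPKM in vehicle mice. All iCT values lay above vehicle, on 1.32, 20.8 and 16.4 implied fragments, and the change of 0.83 (SE 0.25, adjusted p = 0.0518) was just outside the threshold. It passed without iCT mouse 2, at 0.96 (adjusted p = 0.0305), and under both scalings. Plk2, a related kinase, was too low to be tested, with 0, 1.04 and 1.71 FPKM in iCT mice 1 to 3 and at most 0.281 FPKM in any vehicle mouse. Gadd45a, a stress sensor that restrains the G2 to M transition, ranged over 6.74 to 9.53 FPKM in relapse, 5.84 to 14.1 FPKM in iCT and 6.43 to 10.1 FPKM in vehicle. Its highest value, in iCT mouse 1, rested on 4.67 implied fragments.

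**Figure D4:**
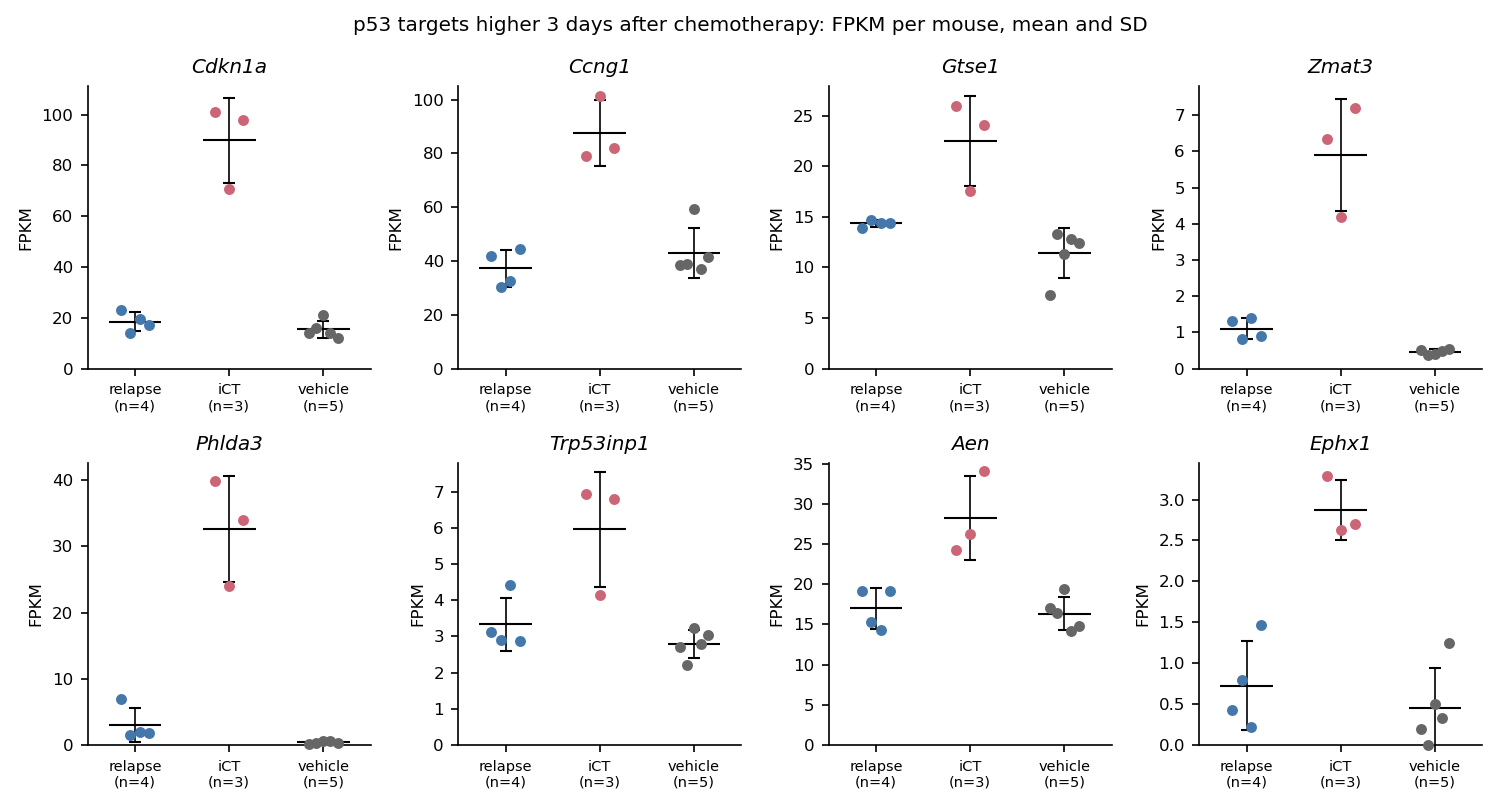
FPKM (y axes, linear, from 0) of the 8 genes that were higher in iCT than in vehicle, with 1 point per mouse, the group mean and the SD for relapse (n = 4), iCT (n = 3) and vehicle (n = 5). In every panel the 3 iCT points lie above all vehicle points, and the relapse points lie near the vehicle points, with a small offset for Phlda3, Zmat3 and Gtse1.

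Among 9 tested genes of cell death and survival, 3 rose, against 3.31% of all genes, and 0 fell. Phlda3 (chr1:135766085-135769134) encodes a small pleckstrin-homology protein that displaces the survival kinase Akt from the membrane. It stood at 6.93, 1.49, 1.96 and 1.88 FPKM in relapse mice 1 to 4, at 39.9, 24.04 and 33.99 FPKM in iCT mice 1 to 3 and at 0.111, 0.295, 0.577, 0.642 and 0.3105 FPKM in vehicle mice 1 to 5. All groups were separate, and relapse mouse 1 stood above the other relapse mice. The iCT values rested on about 21, 313 and 335 implied fragments and the vehicle values on about 1, 1, 1, 5 and 3, so the vehicle level was barely above 0. The change of 4.59 (SE 0.33, adjusted p = 3.42e-05) in iCT was the largest of the 32 tested genes, a fold of 24.01 on FPKM + 1.

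Trp53inp1 (chr4:11156441-11174377), a stress protein that promotes p53 phosphorylation and autophagy, was at 3.13, 2.91, 4.42 and 2.89 FPKM in relapse, 6.95, 4.14 and 6.79 FPKM in iCT and 2.703, 2.22, 3.23, 2.798 and 3.03 FPKM in vehicle mice. Each iCT value exceeded each vehicle value, by a log2 change of 0.85 (SE 0.19, adjusted p = 0.01899), but with only iCT and vehicle fitted the adjusted p was 0.0648. Aen (chr7:78895927-78908833, + strand), a nuclease that digests DNA in dying cells, stood at 19.1, 15.4, 14.3 and 19.2 FPKM in relapse mice 1 to 4, at 24.3, 26.3 and 34.1 FPKM in iCT mice 1 to 3 and at 17.02, 16.4, 19.4, 14.1 and 14.8 FPKM in vehicle mice 1 to 5. The iCT libraries were again the 3 highest, with a change of 0.75 (SE 0.15, adjusted p = 0.0125). Aen carries the double site with 3 mismatches, which lies inside the gene position given here, upstream of a later start. Of the 6 risen genes with a promoter in RefSeq, 2 had a double site, against 4 of all 27 genes with a promoter. Trp53 and Rps27l, which did not pass the test, had one too. Whether the site goes with a rise was not tested.

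Fas, the death receptor that recruits caspase-8, was at 2.68, 3.02, 4.67 and 1.85 FPKM in relapse, 5.62, 6.96 and 5.84 FPKM in iCT and 5.57, 2.62, 3.98, 3.91 and 4.69 FPKM in vehicle mice. The iCT values lay just above the vehicle range, and the change of 0.49 (SE 0.24, adjusted p = 0.181) did not pass. The value of iCT mouse 1 rested on under 1 implied fragment. In total 10 of the 32 genes had every iCT library above every vehicle library (the 8 risen genes, Plk3 and Fas), against 5.49% of all genes. Without Plk3, Zmat3 and Ephx1, which were tested only because their iCT libraries are high, it was 7 of 29, against 5.29%.

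No other gene of this class passed the test. Ei24, an endoplasmic reticulum protein tied to autophagy, ranged over 38.3 to 51.1 FPKM in relapse, 49.1 to 66.02 FPKM in iCT and 41.5 to 50.7 FPKM in vehicle. Pidd1, the scaffold that activates caspase-2, was at 4.77 to 8.12 FPKM in relapse, 4.46 to 7.31 FPKM in iCT and 2.76 to 5.41 FPKM in vehicle. Tnfrsf10b, the mouse receptor for the death ligand TRAIL, was at 1.22 to 2.603 FPKM in relapse, 1.13 to 1.59 FPKM in iCT and 0.641 to 1.74 FPKM in vehicle. These 3 ranges overlapped between all groups. Apaf1, the core of the apoptosome, was at 17.8 to 20.2 FPKM in relapse, 14.98 to 17.6 FPKM in iCT and 16.7 to 20.4 FPKM in vehicle. Triap1, a mitochondrial lipid-transfer partner with survival activity, was at 31.4 to 34.4 FPKM in relapse, 26.6 to 34.1 FPKM in iCT and 33.3 to 40.2 FPKM in vehicle. Neither passed the test, and both overlapped between iCT and vehicle. Perp, a membrane protein of epithelia that promotes death in thymocytes, was essentially not expressed, with at most 0.191 FPKM in any library.

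DNA repair and nucleotide supply, 6 genes, had 0 calls in iCT against vehicle in limma, where 3.31% of all genes were higher and 6.31% lower. At an unadjusted p under 0.05 there were 3 of the 6 and 29.8% of all genes. The 3 were Rrm2b, Ddb2 and Ercc5. Rrm2b, the p53-inducible subunit of ribonucleotide reductase, was at 2.47, 2.83, 3.33 and 2.26 FPKM in relapse, 2.23, 2.81 and 1.800 FPKM in iCT and 4.85, 2.95, 3.73, 3.205 and 3.37 FPKM in vehicle mice. Every iCT value was below every vehicle value, the opposite direction to the 8 risen genes, with a change of -0.49 (SE 0.18, adjusted p = 0.0995). Without iCT mouse 2 it was -0.61 (adjusted p = 0.0478).

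Ddb2, which recognises ultraviolet lesions for excision repair, was at 4.75, 4.104, 3.66 and 5.41 FPKM in relapse, 0, 2.697 and 2.599 FPKM in iCT and 3.28, 2.61, 4.26, 3.03 and 4.203 FPKM in vehicle mice. The listed 0 was in the shallow library, so the change of -0.90 (SE 0.36, adjusted p = 0.118) leaned on it, and it was -0.28 (adjusted p = 0.403) without that mouse. Without iCT mouse 2, which leaves the shallow library more weight, it was -1.22 (adjusted p = 0.0381). Ercc5, the endonuclease XPG, was at 1.81, 1.79, 2.21 and 1.75 FPKM in relapse, 5.05, 2.45 and 1.94 FPKM in iCT and 1.66, 1.08, 2.302, 1.02 and 1.13 FPKM in vehicle mice. Its highest value, in iCT mouse 1, rested on about 8 implied fragments. The change of 0.72 (SE 0.25, adjusted p = 0.0818) was 0.41 (adjusted p = 0.275) without it and 0.93 (adjusted p = 0.0433) without iCT mouse 3.

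Xpc, the damage sensor of global excision repair, was the third most abundant of the 34 in vehicle and ranged over 69.7 to 82.6 FPKM in relapse, 51.9 to 71.7 FPKM in iCT and 63.3 to 70.3 FPKM in vehicle. The translesion polymerase gene Polh was at 16.7 to 20.1 FPKM in relapse, 17.2 to 38.4 FPKM in iCT and 17.4 to 19.4 FPKM in vehicle. The top of that iCT range was mouse 1, and the other 2 iCT mice lay within or next to the vehicle range. Polk, another translesion polymerase, was at 1.72 to 2.26 FPKM in relapse, 1.19 to 2.75 FPKM in iCT and 1.499 to 3.27 FPKM in vehicle, with full overlap.

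Of 5 genes of metabolism and redox balance, 1 rose, against 3.31% of all genes, and 0 fell. That gene, Ephx1, was tested only because its iCT libraries are high, so its entry and its rise are tied. Ephx1 (chr1:180989556-181017495), the microsomal epoxide hydrolase that detoxifies reactive epoxides, was at 0.428, 0.789, 0.226 and 1.46 FPKM in relapse mice 1 to 4, 3.29, 2.63 and 2.695 FPKM in iCT mice 1 to 3 and 0.192, 0, 0.499, 0.333 and 1.25 FPKM in vehicle mice 1 to 5. All iCT values stood above all others, though the value of iCT mouse 1 came from 1.99 implied fragments. The change was 1.46 (SE 0.28, adjusted p = 0.009303), and 1.39 (adjusted p = 0.0268) without that mouse. With library weights estimated from the data the call was lost, at 1.25 (adjusted p = 0.0938).

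Sesn1, a sestrin that restrains growth signalling, was at 6.62, 6.09, 5.703 and 8.44 FPKM in relapse, 0, 4.84 and 6.01 FPKM in iCT and 5.53, 6.195, 10.3, 7.09 and 6.64 FPKM in vehicle mice. The only iCT library far below the rest was the shallow one, listed at 0, so the change of -1.22 (SE 0.49, adjusted p = 0.121) became -0.32 (adjusted p = 0.387) without it. Without iCT mouse 2 or 3 it was -1.60 (adjusted p = 0.0487) and -1.73 (adjusted p = 0.0465). The ferredoxin reductase gene Fdxr ranged over 14.4 to 17.6 FPKM in relapse, 11.6 to 17.3 FPKM in iCT and 9.66 to 14.6 FPKM in vehicle. Dcxr, a carbonyl reductase, was at 47.6 to 66.1 FPKM in relapse, 50.4 to 68.6 FPKM in iCT and 38.8 to 55.99 FPKM in vehicle. Ak1, an adenylate kinase, reached at most 2.47 FPKM in any library and was listed at 0 in iCT mouse 1.

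Rps27l, a ribosomal protein gene that duplicates Rps27, was the most abundant of the 34. It stood at 529, 495, 469.9 and 573 FPKM in relapse mice 1 to 4, at 661, 1161 and 627 FPKM in iCT mice 1 to 3 and at 718, 702, 856, 637 and 758 FPKM in vehicle mice 1 to 5. iCT mouse 2 was far above the rest, the other iCT mice lay in or just below the vehicle range, and the change of 0.10 (SE 0.17, adjusted p = 0.7201) did not pass. Reads shared with Rps27 depend on how Cufflinks divided them, so levels of Rps27l are uncertain. Whether the libraries kept strand is not stated in the labels, so reads from exons that Cdkn1a, Gadd45a, Plk3, Ei24, Rrm2b and Ddb2 share with an annotated gene on the opposite strand cannot be told apart.

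**Figure D5:**
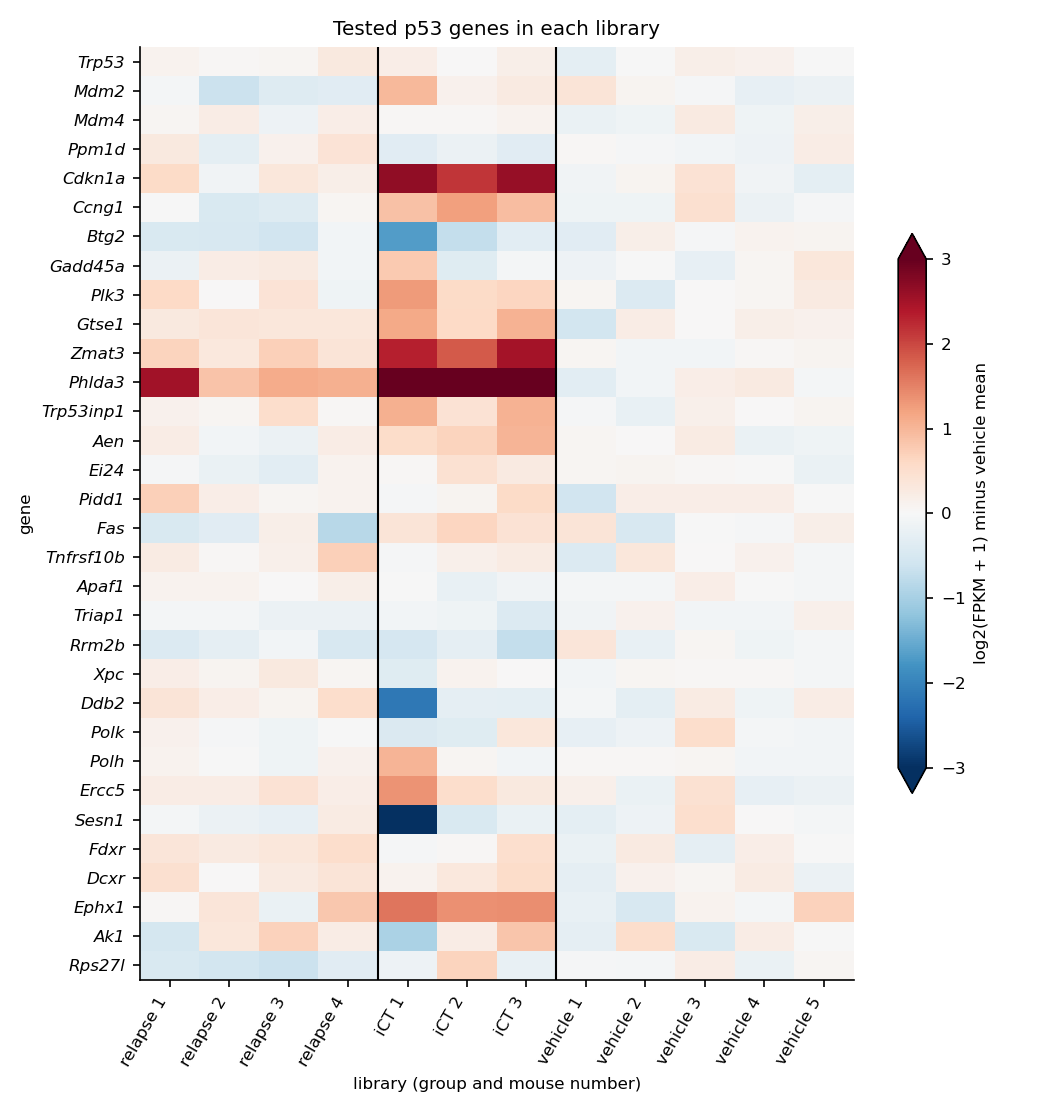
Difference of log2(FPKM + 1) from the vehicle mean (colour, red higher and blue lower, capped at 3 either way) for the 32 tested genes (rows) in each of the 12 libraries (columns: relapse, iCT, vehicle). Rows of Cdkn1a, Zmat3 and Phlda3 are dark red in all 3 iCT libraries, and the dark blue cells of Sesn1 and Ddb2 lie in iCT mouse 1, the shallow library.

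Over the 8 risen genes, chosen here for that rise and so given only as a description, the median difference from the vehicle mean was 1.38, 1.31 and 1.22 on the log2 scale in iCT mice 1 to 3. It was 0.26, 0.18, 0.34 and 0.28 in relapse mice 1 to 4 and between -0.12 and 0.18 in vehicle mice. Over the other 24 tested genes the iCT medians were -0.03, 0.05 and 0.13.

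At day 10 no p53 gene passed the test against vehicle. In relapse against vehicle limma called 0 of the 32 genes and 0% of all 11019 genes. At an unadjusted p under 0.05 there were 4 of the 32 (Phlda3, Zmat3, Fdxr and Rps27l) and 14.6% of all genes. The median log2 change was 0.13 over the 32 genes and 0.06 over all genes. For Phlda3, Zmat3 and Gtse1 every relapse library lay above every vehicle library, and for Rps27l below, which is 3 of 32 higher, against 9.72% of all genes, and 1 lower, against 4.03%.

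Phlda3 kept the widest gap, with 3.06 ± 2.58 FPKM in relapse (SD, n = 4) and 0.387 ± 0.219 FPKM in vehicle (SD, n = 5), on 28.00, 17.98, 14.7 and 9.59 implied fragments in the relapse mice. Its change was 1.39 (SE 0.31, adjusted p = 0.173), and the adjusted p was 0.0354 with only relapse and vehicle fitted, where 3.78% of all genes were called higher and 1.87% lower. Osteoclast marker sums were 179, 60.2, 120.0 and 77.2 FPKM in relapse mice 1 to 4, the same order as their Phlda3 values. In iCT mice 1 to 3 they were 1013, 268 and 351 FPKM, also in the order of Phlda3. Cdkn1a had the same order of mice in both groups, so this order is not particular to Phlda3. In vehicle mice the orders of the sums and of Phlda3 differed only in mice 3 and 5, whose sums were 54.7 and 55.7 FPKM. Whether osteoclasts carry part of the Phlda3 RNA was not tested. Zmat3 averaged 1.101 ± 0.285 FPKM in relapse and 0.462 ± 0.0726 FPKM in vehicle, a change of 0.51 (SE 0.17, adjusted p = 0.208). Rps27l averaged 517 ± 44.5 FPKM in relapse and 734 ± 80.7 FPKM in vehicle, a change of -0.50 (SE 0.16, adjusted p = 0.195), with an adjusted p of 0.0254 in that smaller fit.

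Cdkn1a and Ccng1 did not differ from vehicle beyond their spread. Cdkn1a averaged 18.4 ± 3.72 FPKM in relapse and 15.4 ± 3.398 FPKM in vehicle, a log2 change of 0.25 (SE 0.18, adjusted p = 0.5596). Ccng1 averaged 37.2 ± 6.84 FPKM in relapse and 43.01 ± 9.27 FPKM in vehicle, a change of -0.20 (SE 0.16, adjusted p = 0.606). The 95% interval of the change was -0.14 to 0.63 for Cdkn1a and -0.54 to 0.14 for Ccng1, so a rise as large as that at day 3 lies outside both. Trp53 differed by 0.13 (SE 0.10, adjusted p = 0.611) and Mdm2 by -0.36 (SE 0.19, adjusted p = 0.4101). The other changes were 0.08 for Mdm4, 0.14 for Ppm1d, 0.33 for Gtse1, -0.39 for Btg2, 0.18 for Trp53inp1, 0.05 for Aen, 0.25 for Ephx1 and -0.36 for Fas, each with an adjusted p over 0.05.

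Set directly against day 3, the sorted fraction in relapse had less RNA of 8 p53 genes: Mdm2, Cdkn1a, Ccng1, Zmat3, Phlda3, Aen, Fas and Ephx1. That is 8 of 32 lower, against 3.1% of all genes, and 0 higher, against 6.62%. Among the 29 genes that passed the filter without the iCT libraries, which leaves out Zmat3, Ephx1 and Plk3, 6 were lower, against 2.88%, and 0 higher, against 6.73%. This comparison uses the same iCT libraries as iCT against vehicle, and relapse against vehicle uses the same vehicle libraries, so the 3 comparisons are not independent. The median log2 change was -0.05 over the 32 genes and 0.16 over all genes. Scaling moved the median of all genes to 0.06 with median-of-ratios and 0.02 with quantile normalization, with medians of -0.16 and -0.25 over the 32 genes.

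Phlda3 fell by 3.19 on the log2 scale in relapse relative to iCT (SE 0.35, adjusted p = 5.56e-04). Cdkn1a fell by 2.23 (adjusted p = 1.39e-04), Zmat3 fell by 1.70 (adjusted p = 8.10e-04) and Ccng1 fell by 1.22 (adjusted p = 0.00264). These 4 kept their calls in the alternatives tried, except that Zmat3 was too low to be tested with the filter at 5 FPKM. Aen changed by -0.70 (SE 0.16, adjusted p = 0.0191), and missed the threshold without relapse mouse 2, -0.66 (adjusted p = 0.0559), or relapse mouse 3, -0.62 (adjusted p = 0.0543).

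Mdm2 and Fas passed the test here and in neither comparison with vehicle. The mean of Mdm2 was 22.00 ± 3.805 FPKM in relapse (SD, n = 4) and 40.6 ± 13.7 FPKM in iCT (SD, n = 3), and every relapse mouse lay below every iCT mouse, a change of -0.82 (SE 0.21, adjusted p = 0.0311). The call was lost without iCT mouse 1, at -0.57 (adjusted p = 0.0861), and without relapse mouse 2, 3 or 4, at adjusted p of 0.0700 to 0.0799. Fas averaged 3.06 ± 1.18 FPKM in relapse and 6.14 ± 0.718 FPKM in iCT, a change of -0.86 (SE 0.25, adjusted p = 0.0471), which missed the threshold on leaving out any 1 of 9 libraries (adjusted p 0.0546 to 0.12). Only the omission of vehicle mouse 1 or 2 or relapse mouse 3 kept it. Ephx1 averaged 0.726 ± 0.543 FPKM in relapse and 2.87 ± 0.361 FPKM in iCT, a change of -1.21 (SE 0.30, adjusted p = 0.02495), which was lost without iCT mouse 1 or relapse mouse 1, 2 or 3 (adjusted p 0.0541 to 0.0676).

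Trp53inp1 and Gtse1 did not pass, with changes of -0.67 (SE 0.20, adjusted p = 0.0544) and -0.60 (SE 0.19, adjusted p = 0.06799). Both passed after either scaling, at adjusted p of 0.0351 and 0.0169 for Trp53inp1 and 0.0323 and 0.0369 for Gtse1. Rps27l changed by -0.60 (SE 0.18, adjusted p = 0.0553), and Rps27l and Ei24 passed without iCT mouse 1, where 2.18% of all genes were called lower. Ddb2 stood above iCT in every relapse mouse, 3.66 to 5.41 FPKM in relapse against 0 to 2.70 FPKM in iCT. Trp53 itself had the same mean in both groups, 119.7 FPKM. In all, 10 of 32 genes had every relapse library below every iCT library, against 6.33% of all genes, and 2 (Apaf1 and Ddb2) had them above, against 16.9%. Among the 29 genes that did not need the iCT libraries to be tested, 8 were below, against 6.02%, and 2 above, against 17.2%.

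Other parts of the pathway were read from lists of genes outside the 34. Of 16 tested further p53 targets, 4 were higher in iCT than in vehicle, against 3.31% of all genes, and 0 lower, against 6.31%. Bax, the pore-forming killer of mitochondria, averaged 223 FPKM in iCT and 139 FPKM in vehicle, a log2 change of 0.67 (SE 0.15, adjusted p = 0.0176). Slc19a2, a thiamine transporter, changed by 1.001 (adjusted p = 0.0092), Sesn2, a sestrin, by 1.20 (adjusted p = 0.0186) and Psrc1, a spindle protein, by 1.05 (adjusted p = 0.0227). Bax missed the threshold with only iCT and vehicle fitted (adjusted p = 0.0518), and Slc19a2 with that fit without iCT mouse 1 (0.0533). Sesn2 missed the threshold without iCT mouse 1 (adjusted p = 0.0532) or iCT mouse 3 (0.0511), and Psrc1 without vehicle mouse 5 (0.0504) or iCT mouse 3 (0.0604). The BH3-only killers did not pass. Bbc3 (Puma) changed by 0.07 (adjusted p = 0.879) and Pmaip1 (Noxa) by 0.29 (adjusted p = 0.266). In relapse against iCT 0 of the 16 were higher, against 6.62% of all genes, and 2 lower, against 3.1%. These were Bax and Slc19a2, with means of 137 and 3.82 FPKM in relapse and 223 and 8.52 FPKM in iCT. Without relapse mouse 3 Bax missed the threshold there (adjusted p = 0.0503).

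Of 17 kinases and partners that act upstream of p53, 1 was higher in iCT and 0 lower, near the shares of all genes (3.31% and 6.31%). That gene was Usp7, which removes ubiquitin from p53 and Mdm2, with a log2 change of 0.48 (adjusted p = 0.0176), a call lost with array weights and with only iCT and vehicle fitted. p21 acts on the cycle largely by restoring the DREAM repressor, which silences cell-cycle genes. Of 20 such genes 1 was higher in iCT and 0 were lower, again near 3.31% and 6.31% of all genes. It was Mybl2, with means of 49.6 FPKM in iCT and 26.2 FPKM in vehicle and a change of 0.87 (adjusted p = 0.0037). Their summed FPKM was 1292 to 1427 in relapse, 1288 to 1487 in iCT and 1121 to 1384 in vehicle, and the 3 groups overlapped. A sum can hide opposite shifts, and 11 of the 20 changes in iCT against vehicle were above 0. Among cell-cycle genes, Top2a was at 43.5 to 46.0 FPKM in iCT and 55.5 to 74.7 FPKM in vehicle. Plk1 was at 54.3 to 100.9 FPKM in iCT and 24.9 to 52.9 FPKM in vehicle, and Ccnb1 at 65.5 to 76.2 and 42.9 to 62.2 FPKM. The highest Plk1 value was in iCT mouse 1, the shallow library, with 57.9 and 54.3 FPKM in iCT mice 2 and 3. Cdk1 overlapped, at 40.7 to 48.2 FPKM in iCT and 40.9 to 47.6 FPKM in vehicle. Of all genes, 5.49% had every iCT library above every vehicle library and 10.6% had them below. In relapse against iCT 1 of the 20, again Mybl2, was lower and 0 were higher, near the shares of all genes (3.1% and 6.62%). Mybl2 had a mean of 31.4 FPKM in relapse. Its call was lost without iCT mouse 1 or any single relapse mouse (adjusted p 0.0528 to 0.0587). Among the kinases and partners 1 of 17 was higher in relapse than in iCT and 0 lower, near the shares of all genes (6.62% and 3.1%). It was Prkdc, the catalytic subunit of DNA-dependent protein kinase, with means of 2.87 FPKM in relapse and 0.984 FPKM in iCT and a change of 1.08 (adjusted p = 0.0400). It missed the threshold in 18 of 22 alternatives, and was 0.65 (adjusted p = 0.0776) without iCT mouse 1. In relapse against vehicle the 3 lists had 0 calls.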

How the data were processed

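RNA-seq of sorted leukaemia cells gave 1 gene table per mouse. The deposited FPKM values, with 95% bounds, were made by the authors. STAR and Cufflinks, without versions, and the build mm9 are named in the submitters' processing notes, but 22934 of 23072 symbols (99.4%) overlapped a GRCm38 gene of the same name, so coordinates are read as GRCm38. Implied fragments were derived from the bounds and give a value's precision for counting error only. They came out whole, within 0.02, for 44.64% to 47.13% of values per library, so no count test was run.

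Of 24883 entries, 2 with a failed status were left out. log2(FPKM + 1) was tested with limma 3.58.1 (R 4.3.3; statmod 1.5.0) on all 12 libraries with group as the only term and a variance trend, for 11019 genes with at least 1 FPKM in 3 libraries. Benjamini-Hochberg adjustment ran over all of them at a threshold of 0.05. Fold changes on this scale understate changes of low genes. No 2 libraries were identical. All 12 libraries were also simulated, with 10844 genes tested for iCT against vehicle. Of these, 72 of 100 genes changed by 1 on the log2 scale and 91 of 100 changed by 2 were recovered, with 14 false calls in all. The changed genes had a vehicle mean of log2(FPKM + 1) above 2, each gene had 1 spread in all libraries, and none was made shallow. Recovery of lower genes, or with a shallow library, was not tested. Figures used Python 3.11.15 with matplotlib 3.10.9.

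The 34 genes, the other lists and the tests were chosen with earlier results of these data known. Genes past the threshold in any comparison, and Trp53, Mdm4 and Ppm1d, are given mouse by mouse, and other genes by range. Plk3, Rrm2b, Ddb2, Ercc5, Sesn1 and Rps27l were added mouse by mouse after their values were seen. Alternatives were other pseudocounts, filters, scalings and weights, no variance trend, a replicate block, each library left out and fits of 2 groups. The fits of 2 groups without iCT mouse 1 were chosen after seeing the data.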

Additional observations from a re-analysis of the deposited data

Results flagged for a closer look

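In 7 of 64 groups of 4 or 5 mice screened, 1 mouse stood apart from the others by Dixon's criterion, which chance alone meets in about 1 in 20 groups. These were Ccng1 in vehicle mouse 3 (59.4 FPKM, highest of 5), Gtse1 in vehicle mouse 1 (7.27 FPKM, lowest of 5), Phlda3 in relapse mouse 1 (6.93 FPKM, highest of 4), Pidd1 in vehicle mouse 1 (2.76 FPKM, lowest of 5), Apaf1 in vehicle mouse 3 (20.4 FPKM, highest of 5), Polk in vehicle mouse 3 (3.27 FPKM, highest of 5) and Ercc5 in relapse mouse 3 (2.21 FPKM, highest of 4).

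The changes of Mdm2 against vehicle differed between the treated groups, with -0.36 in relapse and 0.46 in iCT, neither of which passed the test. The difference between them was -0.82 on the log2 scale (limma, adjusted p = 0.0311), and it rests in part on iCT mouse 1, the shallow library.

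Plk2, which was too low to be tested, had 1.04 FPKM in iCT mouse 2 and 1.71 FPKM in iCT mouse 3, above every vehicle mouse and on more than 3 implied fragments, whereas iCT mouse 1 was listed at 0.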

How the results depend on the processing

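Counts of p53 genes higher in iCT than in vehicle, 8 of 32, were 5 with the filter at 5 FPKM, 4 with the replicate block and 4 with only the 2 groups and without iCT mouse 1. The single lower gene, Btg2, was lost (0 lower) with a pseudocount of 0.1, with no filter, with array weights, with the replicate block, with only the 2 groups, and with these without iCT mouse 1. Leaving out single mice gave 0 to 4 lower (2 without iCT mouse 3, 4 without iCT mouse 2). In relapse against vehicle, 0 higher and 0 lower became 2 and 2 with array weights (Phlda3, Zmat3; Btg2, Rps27l) and 1 and 1 with only the 2 groups (Phlda3; Rps27l). In relapse against iCT, 8 lower became 12 with median-of-ratios scaling (gaining Ei24, Gtse1, Rps27l and Trp53inp1), 10 with quantile normalization, 5 with the filter at 5 FPKM, 5 with array weights, 4 with only the 2 groups and 5 with these without iCT mouse 1, and 4 to 9 on leaving out single mice (4 without relapse mouse 2, 5 without relapse mouse 3), with 0 to 2 higher (1 without iCT mouse 2, 2 without iCT mouse 3). Mice with equal numbers did not deviate together (correlations -0.0912 to 0.099), so the replicate block is no pairing by design. With it, calls of Ccng1, Gtse1, Trp53inp1, Aen and Btg2, and of Slc19a2 (adjusted p = 0.0894), in iCT against vehicle were lost, and 6 genes were lower in relapse against iCT.

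Over all genes, 1060 calls in iCT against vehicle became 457 with array weights, 197 with the replicate block, 351 with only the 2 groups and 357 with these without iCT mouse 1, and 569 to 2722 on leaving out single mice (618 without vehicle mouse 3, 569 without vehicle mouse 5, 686 without iCT mouse 1, 2722 without iCT mouse 2). In relapse against vehicle, 0 became 1 with no filter, 971 with array weights and 612 with only the 2 groups, and 0 to 5 on leaving out single mice (1 without vehicle mouse 4, 5 without iCT mouse 1). In relapse against iCT, 1071 became 603 with array weights, 372 with the replicate block, 252 with only the 2 groups and 533 with these without iCT mouse 1, and 529 to 1855 on leaving out single mice (529 to 593 without a relapse mouse, 1855 without iCT mouse 3). The filter and the smaller fits change which genes or mice enter; for the other settings the cause was not tested.

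Changes that turned sign were all uncalled. In iCT against vehicle, Rps27l ranged over -0.18 to 0.26 and Bbc3 over -0.13 to 0.40 on leaving out single mice. In relapse against vehicle, Mdm4 was -0.015 with quantile normalization, and Aen was -0.020 with median-of-ratios scaling, -0.021 with quantile normalization and -0.0095 to 0.12 on leaving out single mice. In relapse against iCT, Trp53 was 0.031 with only the 2 groups and without iCT mouse 1, and -0.060 to 0.031 on leaving out single mice. Mdm4 there was -0.074 with median-of-ratios scaling, -0.16 with quantile normalization, and -0.022 to 0.10 on leaving out single mice.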
